A study of Homo sapiens with 6 samples.

Results

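The comparison described here set U87 cells that carried IL-33 without its nuclear localization signal (ΔNLS clones 3 and 4) against U87 cells that carried the empty vector. U87 is an established human glioma line. The 3 arrays were chosen by their sample titles from a series of 6, in which the other 3 held clones 3, 5 and 9 with full-length IL-33. All cells had been transfected with a pcDNA3.1 plasmid and grown under G418. The plasmid held the deletion mutant in the ΔNLS clones, the full-length human coding sequence in the IL-33 clones and no insert in the control. Each ΔNLS or IL-33 array measured 1 clone, so a value carried whatever set that clone apart from the parental line, and the control was 1 array. RNA of cultured cells was hybridised to a 3′ expression array, and each level below is a quantile-normalised log2 value of 1 probe set per gene. The genes described were those at least 1 log2 unit from the control in both ΔNLS clones, 1893 of the 18132 genes measured.

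IL-33 is a member of the IL-1 family that acts in 2 ways. Its amino-terminal part carries it into the nucleus and onto chromatin, and its carboxy-terminal part is the cytokine, which binds the receptor ST2 (IL1RL1) and its co-receptor IL1RAP on other cells and signals through MyD88 to NF-kB. IL-33 has no secretory signal and is held as an alarmin until a cell is damaged. A protein without the amino-terminal part keeps the cytokine and loses the chromatin tether. The comparison asked which transcripts differed in glioma cells that made only this form.

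The ΔNLS arrays stood apart from the rest of the series in their deposited distribution. Their medians were 5.43 and 5.43, against a range of 5.61 to 5.62 over the other 4 arrays, and the quantile normalisation removed this offset. Poly-A spike controls, which are added to the RNA before labelling, differed from the control by a median of -1.70 and -2.32 deposited log2 units in ΔNLS clones 3 and 4 (all 24 probe sets lower), while those of the IL-33 clones lay within 0.12 of it. Probe sets for 18S ribosomal RNA were at 9.50 and 10.10 in the ΔNLS clones and 12.58 in the control, and all 18 hybridisation controls were higher in both ΔNLS clones. The difference between the 3′ and 5′ probe sets of ACTB was 0.11 and 0.05 in ΔNLS clones and 0.29 in the control, and that of GAPDH was 0.02 and 0.01 in ΔNLS clones and 0.02 in the control. Construct and array set cannot be told apart in any difference below.

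IL33, the gene on the plasmid, comes before all others. It was at 6.58 and 6.71 in ΔNLS clones 3 and 4, at 8.38 (clone 3), 6.35 (clone 5) and 9.51 (clone 9) in the IL-33 clones and at 3.38 in the control. All 5 clones lay above the control, and on this probe set the ΔNLS clones lay inside the range of the IL-33 clones. Each of the 3 IL33 probe sets was at least 1 higher in both ΔNLS clones than in the control. On 1 of them the ΔNLS clones, at 4.82 and 5.01, lay below all IL-33 clones, at 5.12 to 7.14. The mean difference of 3.26 ± 1.15 (SE), or 1.84 with levels under the background level of 4.80 raised to it, did not pass limma over all genes (adjusted p = 0.0712), in a fit whose spread included the wide IL-33 clones, and over 13 alternatives the adjusted p ran between 4.96e-06 and 0.227 and passed in 4. The ΔNLS minus IL-33 difference of -1.44 did not pass either (adjusted p = 0.218). The alternatives against the control included fits without the IL-33 clones, whose only spread was that between the 2 ΔNLS clones.

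The arrays carried the marks of the labelled line. Of 11 glioma markers measured, all lay above background, which is the 95th percentile of olfactory receptor genes, and 0 were at least 1 from the control in both clones. A level below background gives only a bound, so where all levels on one side of a printed difference lay below it and this mattered to the size, a bounded difference, with such levels raised to 4.80, is given beside the fitted one. VIM, the mesenchymal intermediate filament, was at 13.80 and 13.79 in ΔNLS clones and 13.87 in the control. CDKN2A and CDKN2B, which lie in a locus known to be lost from this line, were below background in all 3 arrays, and their neighbour MTAP was at 5.39 and 5.27 in ΔNLS clones and 5.00 in the control. Of 12 myeloid markers 4 were above background, and the leukocyte antigen PTPRC was at 2.26 and 2.05 in ΔNLS clones and 2.20 in the control. The macrophage growth factor receptor CSF1R was at 5.36 and 5.45 in ΔNLS clones and 7.81 in the control and fell by 2.41 ± 0.14 (adjusted p = 0.000927). Of its 3 probe sets 2 were at least 1 lower and 1 was above the control in both ΔNLS clones. The mean difference over the 3 was -1.11. Among 10 epithelial markers 6 rose and 1 fell in limma, against 20% and 16.4% of all genes, and of the 6 markers above background 4 rose. The list had linear levels that summed to 470 and 871 in ΔNLS clones and 267 in the control. KRT8, a keratin of simple epithelia, rose to 7.21 and 8.45 against 5.42 (adjusted p = 0.0133), whereas the defining adhesion molecule EPCAM was at 2.73 and 2.75 in ΔNLS clones and 4.65 in the control. The part of these markers in other differences was not tested. The arrays measured whole cultures, so more cells with a transcript and more transcript per cell cannot be told apart.

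Among all genes, 1001 (5.52%) were at least 1 higher and 892 (4.92%) at least 1 lower than the control in both ΔNLS clones. The clones resembled each other: 0 genes were past 1 in opposite directions, 352 were past 1 only in clone 3 and 422 only in clone 4. The size of the difference between the clones had a median of 0.12, against 0.37 and 0.37 for the difference of each clone from the control. Of the 1001 higher genes the control was below background in 431, and of the 892 lower genes both ΔNLS clones were below background in 333. With levels below background raised to it, 717 genes were at least 1 higher and 678 at least 1 lower. Of the higher genes 674 had several probe sets, and all of them were at least 1 higher in 223. Of the lower genes 654 had several, and all were at least 1 lower in 223.

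**Figure D1:**
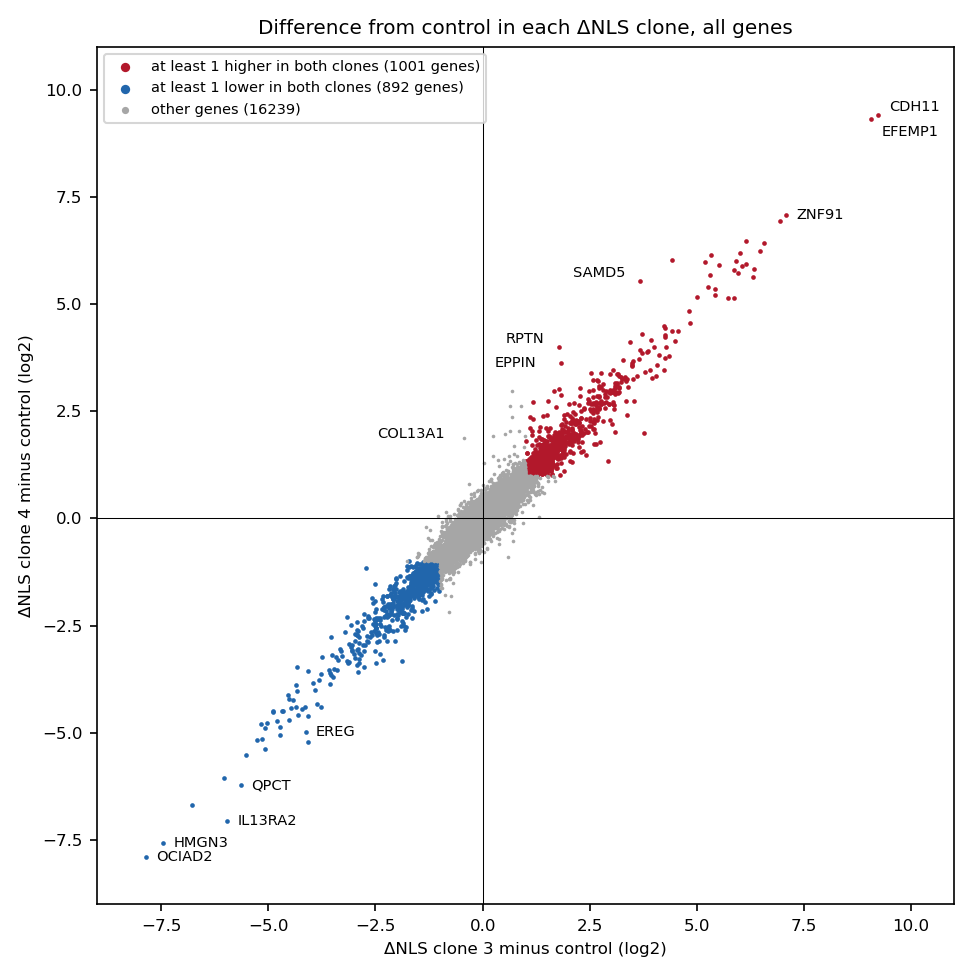
Each point is a gene, with the log2 difference from the control in ΔNLS clone 3 on the horizontal and in ΔNLS clone 4 on the vertical axis. The points follow the diagonal, with 1001 genes past 1 in both clones at the upper right, 892 at the lower left and 0 in the opposite corners.

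In limma 3620 genes (20%) passed as higher and 2981 (16.4%) as lower at an adjusted p under 0.05, of which 962 and 830 were also past 1 in both clones. Size and call were different criteria, since 39 higher and 62 lower genes past 1 did not pass. The fit took the spread of the 1 control array to be that of the clones. Without ΔNLS clone 3 there were 1985 higher and 1565 lower calls, and without clone 4 there were 1845 and 1581. The split between directions followed the scaling, with 2682 higher and 4268 lower calls on the values as deposited and 4248 and 2823 after median centring. On the deposited scale 782 genes were at least 1 higher and 1229 at least 1 lower in both clones. The median difference over all genes was 0.05 after quantile normalisation, -0.09 as deposited and 0.09 after median centring. Among 341 olfactory receptor genes, 53 passed as higher and 30 as lower, and 3 and 1 were past 1 in both clones. The nearest genes on either side of the size threshold were DRD4 inside (1.06 and 1.0) and RBM3 outside (1.10 and 1.0, short of 1 before rounding) among the higher ones, and OTUD4 inside (-1.0 and -1.03) and HOMER2 outside (-1.0 and -1.25, again short of 1) among the lower ones.

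The genes that rose most included a cadherin, a matrix glycoprotein and a Wnt receptor. CDH11, a cadherin of mesenchymal cells, was at 11.15 and 11.32 in ΔNLS clones 3 and 4, at 7.35, 8.59 and 8.57 in the IL-33 clones and at 1.92 in the control. EFEMP1, the matrix glycoprotein fibulin-3, was at 11.03 and 11.26 in ΔNLS clones, at 7.62, 7.12 and 6.67 in the IL-33 clones and at 1.96 in the control. Both genes were highest in the ΔNLS clones, intermediate in the IL-33 clones and below background in the control. With the control raised to background, the smaller of the 2 clones' differences was 6.35 for CDH11 and 6.22 for EFEMP1, and the fitted differences were 9.32 ± 0.52 (adjusted p = 0.000915) and 9.19 ± 0.37 (adjusted p = 0.000487). Each of the 6 CDH11 and 4 EFEMP1 probe sets was at least 1 higher in both clones. The ΔNLS clones also exceeded the IL-33 clones, by 3.06 for CDH11 (adjusted p = 0.00312) and 4.01 for EFEMP1 (adjusted p = 0.000818).

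VCX, a gene of the X chromosome expressed in testis, was at 10.18 and 10.03 in ΔNLS clones, at 3.89, 4.39 and 3.77 in the IL-33 clones and at 3.61 in the control. SERINC2, a member of the serine incorporator family, was at 9.98 and 10.78 in ΔNLS clones, at 5.03 to 5.14 in the IL-33 clones and at 4.80 in the control. The long non-coding RNA UCA1 was at 9.35 and 9.69 in ΔNLS clones, at 3.36 to 4.22 in the IL-33 clones and at 3.21 in the control. These 3 transcripts were high in the ΔNLS clones and near or below background in the other 4 arrays. They differed from the IL-33 clones by 6.09 for VCX (bounded 5.30, adjusted p = 0.000203), 5.31 for SERINC2 (adjusted p = 0.00036) and 5.82 for UCA1 (bounded 4.72, adjusted p = 0.000391). VCX has near-identical copies on the X chromosome that its probes may also detect. Over all genes, 318 were at least 1 above each of the other 4 arrays in both ΔNLS clones, and 195 were at least 1 below.

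On the probe set used, the IL-33 clones also lay above the control in the other 7 of the 12 highest genes. MAGEC2 in clone 5 was a partial exception. FZD8, a Wnt receptor, was at 10.44 and 10.61 in ΔNLS clones, 9.68 to 10.01 in IL-33 clones and 5.44 in the control. Its difference from the control was 5.09 ± 0.17 (adjusted p = 0.000432). The other FZD8 probe set was at 9.87 and 10.19 in ΔNLS clones, 7.86 to 8.30 in IL-33 clones and 5.30 in the control. TPD52, a protein of vesicle trafficking, was at 9.90 and 9.74 in ΔNLS clones, at 9.03 to 9.36 in the IL-33 clones and at 3.86 in the control. MAGEC1 and MAGEC2, antigens usually limited to testis and tumors, were at 9.54 and 9.55 and at 10.13 and 9.41 in ΔNLS clones, against 2.60 and 4.27 in the control. In IL-33 clones 3, 5 and 9 MAGEC2 was at 6.92, 4.53 and 7.04, so clone 5 and the control were both below background. MAGEC2 did not pass without ΔNLS clone 3 (adjusted p = 0.0807) or clone 4 (adjusted p = 0.0662), and it was the only 1 of the 12 to lose its call in those fits. DKK3, a secreted Dickkopf family member, was at 9.30 and 9.70 in ΔNLS clones and 3.79 in the control, LDOC1, an X-linked gene derived from a retrotransposon, at 9.24 and 9.32 in ΔNLS clones and 3.32 in the control, and ZNF91, a repressor of retrotransposons, at 9.22 and 9.22 in ΔNLS clones and 2.14 in the control. All 3 lay between the ΔNLS clones and the control in the IL-33 clones.

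**Figure D2:**
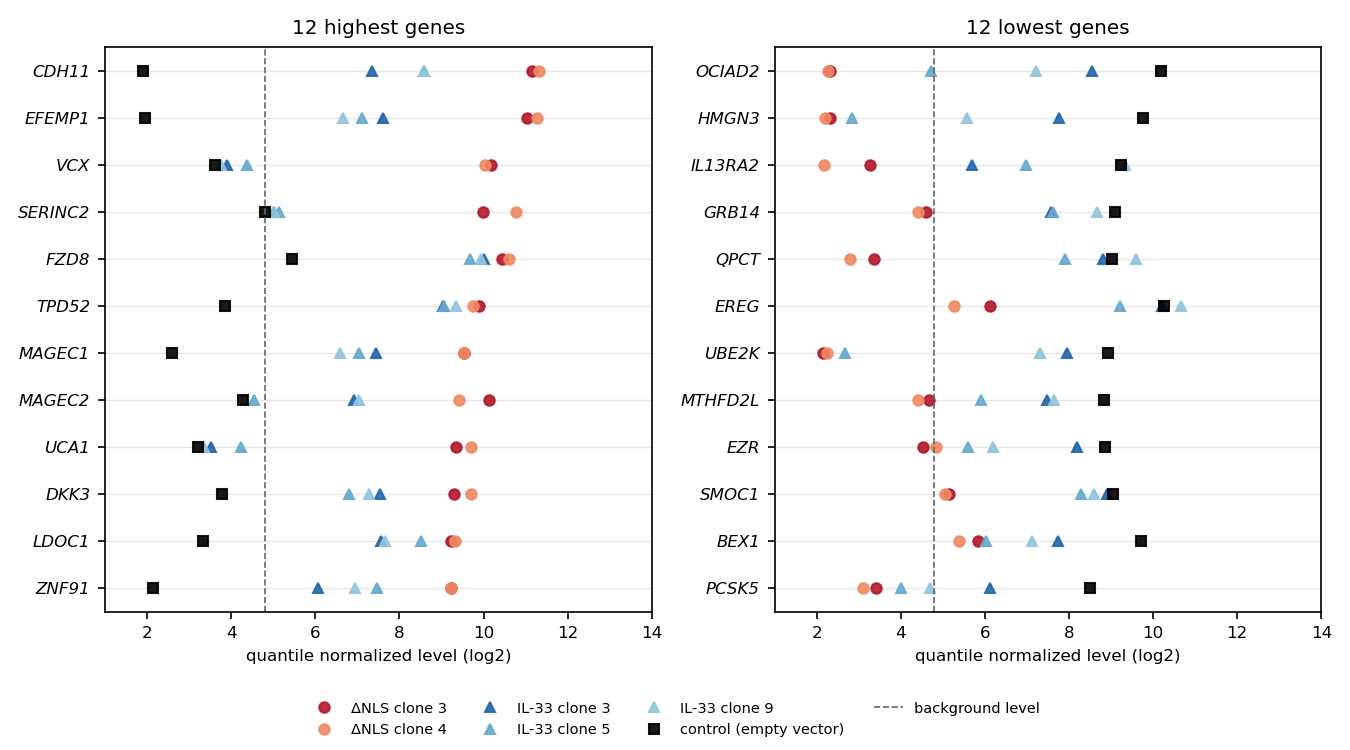
Log2 levels of the 12 highest and the 12 lowest genes are shown on the 6 arrays, with ΔNLS clones, IL-33 clones and the control marked and a line at the background level of 4.80. Both ΔNLS clones lie on the same side of the control by the rule that chose the genes. The IL-33 clones lie just below the ΔNLS clones for FZD8, near the control for VCX and between for CDH11.

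The genes that fell most included a decoy receptor, a chromatin protein and a growth factor. OCIAD2, a protein of endosomes and mitochondria, was at 2.32 and 2.28 in ΔNLS clones, at 8.55, 4.71 and 7.21 in the IL-33 clones and at 10.18 in the control. HMGN3, a nucleosome-binding protein, was at 2.31 and 2.20 in ΔNLS clones, at 7.77, 2.85 and 5.56 in the IL-33 clones and at 9.77 in the control. IL13RA2, which binds IL-13 without signalling as its classical receptor does, was at 3.28 and 2.18 in ΔNLS clones, at 5.70, 6.97 and 9.33 in the IL-33 clones and at 9.24 in the control. In each of the 3 genes the ΔNLS clones were below background and the IL-33 clones spread over several log2 units. With the ΔNLS levels raised to background the differences were at most -5.38, -4.97 and -4.43. Their adjusted p values were 0.01, 0.0224 and 0.0165, and each lost its call when either ΔNLS clone was left out, at 0.0694, 0.113 and 0.101 in the weaker of those fits.

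QPCT, the glutaminyl cyclase that modifies the amino terminus of chemokines and hormones, was at 3.37 and 2.79 in ΔNLS clones, at 8.80, 7.90 and 9.59 in the IL-33 clones and at 9.01 in the control. EREG, the EGF receptor ligand epiregulin, was at 6.12 and 5.27 in ΔNLS clones, at 10.22, 9.20 and 10.67 in the IL-33 clones and at 10.26 in the control. GRB14, an adaptor that inhibits the insulin receptor, was at 4.60 and 4.40 in ΔNLS clones, at 7.57, 7.61 and 8.67 in the IL-33 clones and at 9.11 in the control. In these genes the ΔNLS clones lay below all other arrays. GRB14 was also lower in the IL-33 clones than in the control, but this did not pass (-1.16, adjusted p = 0.163). QPCT, EREG and GRB14 fell by 5.93 ± 0.65, 4.56 ± 0.62 and 4.61 ± 0.46 against the control (adjusted p = 0.00296, 0.00511 and 0.00248) and differed from the IL-33 clones by -5.68, -4.33 and -3.45 (adjusted p = 0.00126, 0.00206 and 0.00174). QPCT and GRB14 were below background in both ΔNLS clones, and their bounded differences were -4.21 and -4.30 from the control and -3.96 and -3.15 from the IL-33 clones. SMOC1, a secreted BMP antagonist, followed the same order at 5.14 and 5.05 in ΔNLS clones, 8.28 to 8.90 in IL-33 clones and 9.05 in the control. On its other probe set the ΔNLS clones were less than 1 below the control (-0.84 and -0.95). The IL-33 clones lay above the control there (7.76 to 8.39 against 7.42). QPCT, EREG, GRB14 and SMOC1 were the lowest genes that kept their call without each ΔNLS clone. The 8 that did not were OCIAD2, HMGN3 and IL13RA2, UBE2K (ubiquitin-conjugating enzyme), MTHFD2L (mitochondrial folate enzyme), EZR (linker of actin and membrane), BEX1 and PCSK5 (proprotein convertase). UBE2K was nearest the threshold, at 2.15 and 2.25 in ΔNLS clones and 8.93 in the control (adjusted p = 0.0478, and 0.174 without clone 3), with IL-33 clone 5 at 2.68.

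Promoters were looked up for the 3 highest and 3 lowest genes, and the RefSeq table (GRCh38.p14) held those of VCX, OCIAD2 and HMGN3. They are shown because their transcripts were nearly on or off between the ΔNLS clones and the control. Each run covers 250 bases before and 50 after the start, on the gene's strand, with CG dinucleotides, the sites of DNA methylation, in capitals. No methylation was measured here. VCX lies at chrX:7842921-7843220 (plus strand), OCIAD2 at chr4:48906779-48907078 (minus strand) and HMGN3 at chr6:79234633-79234932 (minus strand).
VCX: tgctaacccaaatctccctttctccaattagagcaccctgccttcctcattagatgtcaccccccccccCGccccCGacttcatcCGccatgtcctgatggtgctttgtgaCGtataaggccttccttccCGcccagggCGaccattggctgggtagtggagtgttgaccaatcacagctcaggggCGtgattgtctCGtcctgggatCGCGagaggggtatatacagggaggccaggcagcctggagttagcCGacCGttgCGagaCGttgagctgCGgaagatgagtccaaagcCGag
OCIAD2: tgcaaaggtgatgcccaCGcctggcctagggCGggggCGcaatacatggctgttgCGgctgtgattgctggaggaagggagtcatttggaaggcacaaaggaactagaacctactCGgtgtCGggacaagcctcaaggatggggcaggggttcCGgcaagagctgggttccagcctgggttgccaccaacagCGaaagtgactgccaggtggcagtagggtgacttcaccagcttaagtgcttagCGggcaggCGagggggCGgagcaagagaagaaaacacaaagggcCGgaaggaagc
HMGN3: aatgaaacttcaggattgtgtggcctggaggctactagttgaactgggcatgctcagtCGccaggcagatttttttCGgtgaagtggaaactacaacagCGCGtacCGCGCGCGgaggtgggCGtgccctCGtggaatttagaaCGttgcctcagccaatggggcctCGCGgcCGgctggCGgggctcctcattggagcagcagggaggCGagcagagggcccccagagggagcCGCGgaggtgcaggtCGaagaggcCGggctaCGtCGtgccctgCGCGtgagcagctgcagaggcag
The 3 runs held 16, 12 and 24 CG dinucleotides, against a median of 23 over the promoters of the 14425 measured genes in the table.

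Of the study's 10 cytokines, CCL2 and LIF were at least 1 higher than the control in both ΔNLS clones, and CXCL8 and CXCL3 at least 1 lower. CXCL3 was below background in both ΔNLS clones, and with background in place of those levels the smaller of the 2 clones' differences was -0.53, short of 1. CCL2, a monocyte attractant, was at 6.49 and 7.17 in ΔNLS clones, at 6.58, 4.36 and 7.45 in the IL-33 clones and at 3.04 in the control. It was the only 1 of the 10 to pass against the control (3.79 ± 1.17, bounded 2.03, adjusted p = 0.0494), with an adjusted p of 2.34e-05 to 0.2 over 13 alternatives, 7 of which passed, and 0.146 and 0.2 without ΔNLS clone 3 and clone 4. LIF, an IL-6 family cytokine, was at 7.34 and 7.12 in ΔNLS clones, at 9.47, 9.00 and 11.18 in the IL-33 clones and at 5.04 in the control. Both ΔNLS clones lay above the control and below all IL-33 clones. Its difference from the control did not pass (2.19 ± 0.83, adjusted p = 0.0873), and that from the IL-33 clones did (-2.66, adjusted p = 0.0185). All 3 LIF probe sets were above the control in both ΔNLS clones, 1 of them by at least 1, and their mean difference was 0.90.

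IL1B, the inflammatory IL-1β, was at 5.33 and 5.63 in ΔNLS clones, at 12.12, 11.72 and 13.58 in the IL-33 clones and at 6.60 in the control. CXCL8, the neutrophil attractant IL-8, was at 5.75 and 5.98 in ΔNLS clones, at 10.34, 9.03 and 12.98 in the IL-33 clones and at 8.05 in the control. IL6 was at 4.69 and 4.94 in ΔNLS clones, at 8.55, 7.50 and 12.12 in the IL-33 clones and at 5.54 in the control. The other IL6 probe set was above the control in both ΔNLS clones, and the mean difference over both probe sets was -0.23. On the probe set used, in all 3 genes the ΔNLS clones were the lowest arrays and the IL-33 clones the highest, without overlap. The same order held for CSF3, the granulocyte growth factor, at 5.92 and 5.81 in ΔNLS clones, 9.20, 7.97 and 11.57 in IL-33 clones and 6.32 in the control, and for the neutrophil attractant CXCL3, at 2.91 and 2.48 in ΔNLS clones, 6.94, 5.70 and 10.84 in IL-33 clones and 5.34 in the control.

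Of the 10 cytokines 6 were lower in the ΔNLS than in the IL-33 clones in limma, against 20.9% of all genes that were lower (and 22.1% that were higher) in this contrast. The study names most of these cytokines among the genes its IL-33 clones induced most, from the IL-33 and control arrays of this series. A lower level in other clones was thus partly fixed by that choice, and the share over all genes is no test of it. The differences were -6.99 for IL1B (adjusted p = 0.00105), -5.13 for CXCL3 (bounded -3.03, adjusted p = 0.0326), -4.92 for CXCL8 (0.0151), -4.58 for IL6 (0.0336), -3.71 for CSF3 (0.0269) and -2.66 for LIF (0.0185). IL1B kept its call in all 11 alternatives, and it was the only 1 of the 6 to pass when either ΔNLS clone was left out. Without IL-33 clone 3 the count was 3. Against the control these genes did not pass, with an adjusted p of 0.262 for IL1B, 0.275 for CXCL8 and 0.764 for IL6. This depended on the IL-33 clones in the fit. Without them the only spread left was that between the 2 ΔNLS clones, so a p-value there does not measure how the control varies. With the ΔNLS and control arrays fitted alone, CCL2 and LIF rose and CXCL8, CXCL3, IL1B, IL6 and CSF3 fell (2 and 5 of the 10, adjusted p = 0.0018 for IL1B, 0.0129 for IL6 and 0.0456 for CSF3). Without IL-33 clone 9, 2 rose and 3 fell (IL1B, CXCL3 and CXCL8, adjusted p = 0.0242, 0.0211 and 0.0348). IL1RN, CCL3 and CXCL1 passed in neither comparison of the fit of all 6 arrays and were below background in both ΔNLS clones.

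**Figure D3:**
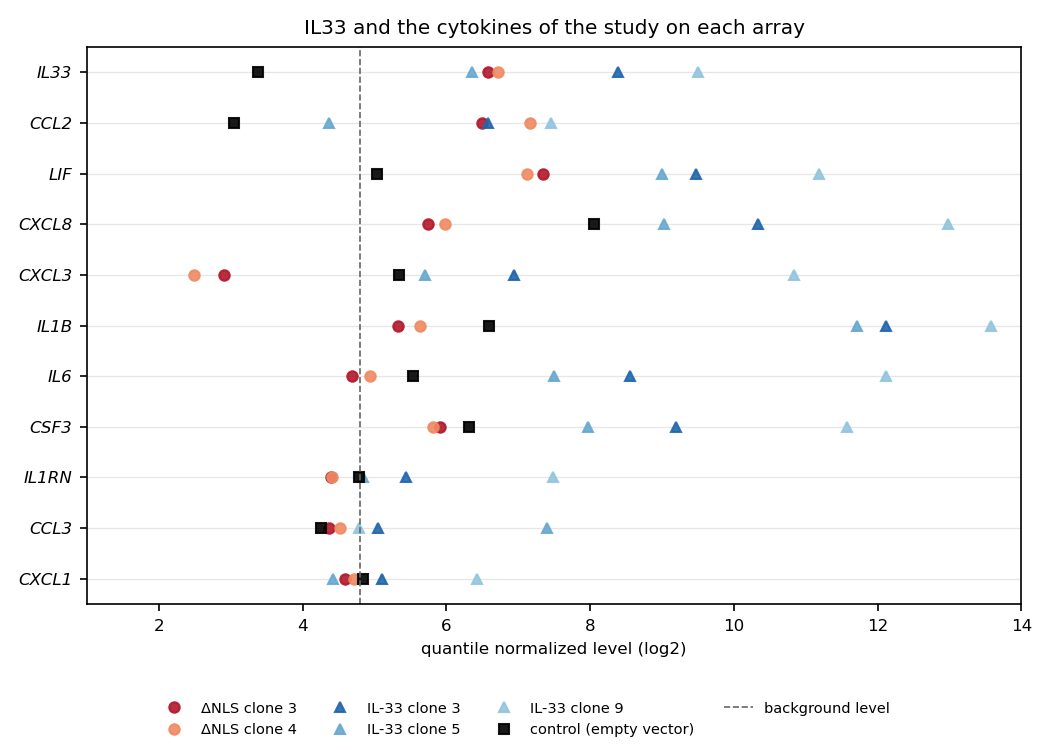
Log2 levels of IL33 and the study's 10 cytokines are shown on the 6 arrays, by group, with the background level of 4.80 as a line. IL1B, CXCL8 and IL6 are lowest in the ΔNLS clones and highest in the IL-33 clones, whereas CCL2 is above the control in both ΔNLS clones.

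The receptor of the cytokine was not above background. IL1RL1, which encodes ST2, was at 3.75 and 3.95 in ΔNLS clones and 4.38 in the control. Its partner IL1RAP was at 7.75 and 7.97 in ΔNLS clones and 7.14 in the control. IL1R1, the receptor of IL-1, was at 7.43 and 7.24 in ΔNLS clones and 8.76 in the control (-1.43 ± 0.43, adjusted p = 0.0467), and CASP1, the protease that matures IL-1β, was at 6.18 and 6.22 in ΔNLS clones and 4.01 in the control (2.19 ± 0.42, bounded 1.40, adjusted p = 0.012). Neither of these calls held without a ΔNLS clone, where the adjusted p reached 0.185 for IL1R1 and 0.076 for CASP1. Of 18 genes of the IL-1 family and its receptors on the array, 2 were at least 1 higher (CASP1 and IL18) and 3 at least 1 lower (IL1A, IL36B and IL1R1). Of these 5, CASP1 and IL1R1 were past 1 with levels below background raised to it, while IL18 was below background in all 3 arrays, and IL1A and IL36B were below it in both ΔNLS clones (bounded differences of -0.85 and -0.96). IL1A, the other classical IL-1 cytokine, was at 3.76 and 3.58 in ΔNLS clones, at 5.53 to 6.64 in the IL-33 clones and at 5.66 in the control (adjusted p = 0.0168).

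Targets of NF-kB lay on both sides of the control, with 3 of 27 at least 1 higher and 4 at least 1 lower. TNFAIP2 was at 7.97 and 8.39 in ΔNLS clones, at 5.88 to 6.44 in the IL-33 clones and at 4.92 in the control, and it rose by 3.26 ± 0.29 (adjusted p = 0.00201). ICAM1, the leukocyte adhesion molecule, was at 6.27 and 6.12 in ΔNLS clones and 4.86 in the control (1.33 ± 0.29, adjusted p = 0.0189, and up to 0.0992 without a ΔNLS clone). PTGS2, the inducible enzyme of prostaglandin synthesis, was at 3.99 and 3.86 in ΔNLS clones, at 8.13, 7.23 and 10.31 in the IL-33 clones and at 6.93 in the control. It lay below the control without passing (adjusted p = 0.0864) and below the IL-33 clones with a difference of -4.63 that passed (bounded -3.75, adjusted p = 0.00863). TNFAIP2 and PTGS2 thus differed in which group of clones was the higher.

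Among 19 genes that attract or feed myeloid cells, 2 were at least 1 higher and 1 at least 1 lower. SPP1, the secreted phosphoprotein osteopontin, was at 9.80 and 8.83 in ΔNLS clones, at 10.90 to 11.83 in the IL-33 clones and at 12.12 in the control (-2.81 ± 0.49, adjusted p = 0.00976, and 0.0521 without clone 4). The chemokine CXCL14 was at 6.95 and 6.69 in ΔNLS clones, at 6.55 to 7.21 in the IL-33 clones and at 3.43 in the control (3.38 ± 0.28, bounded 2.02, adjusted p = 0.00168). SPP1 was lowest in the ΔNLS clones, and CXCL14 was at the same level in both kinds of clone. Among ligands of T and natural killer cells, 4 of 28 were at least 1 higher and 2 at least 1 lower. ULBP1, a ligand of NKG2D, was at 4.97 and 4.82 in ΔNLS clones, at 3.53 to 4.10 in the IL-33 clones and at 7.59 in the control (-2.70 ± 0.26, adjusted p = 0.00227). PDCD1LG2, the PD-1 ligand PD-L2, was at 4.94 and 4.77 in ΔNLS clones, at 6.92 to 7.66 in the IL-33 clones and at 6.83 in the control (adjusted p = 0.00703, and 0.055 without clone 4). The co-stimulatory TNFSF9 was at 7.36 and 7.48 in ΔNLS clones and 6.18 in the control (adjusted p = 0.00375).

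Most genes of sterol synthesis were higher. Of 18 genes 7 were at least 1 higher in both clones and 0 at least 1 lower, the median difference was 1.05 against 0.05 over all genes, and 12 rose, 0 fell and 6 did not pass in limma, against 20% and 16.4% of all genes that rose and fell (8 and 9 rose without ΔNLS clone 3 and clone 4). HMGCS1, which makes the substrate of HMG-CoA reductase, was at 8.88 and 8.34 in ΔNLS clones, at 6.25 to 6.71 in the IL-33 clones and at 6.08 in the control (2.54 ± 0.28, adjusted p = 0.00294). INSIG1, the sterol-induced brake on SREBP, was at 10.77 and 10.33 in ΔNLS clones, at 9.94 to 10.28 in the IL-33 clones and at 8.93 in the control (1.62 ± 0.22, adjusted p = 0.00504). EBP, a sterol isomerase, was at 10.34 and 10.33 in ΔNLS clones and 8.96 in the control (1.37 ± 0.13, adjusted p = 0.00227). For HMGCS1 and EBP the ΔNLS clones also exceeded the IL-33 clones (2.14 and 1.10, adjusted p = 0.00163 and 0.00134), and for INSIG1 this did not pass (adjusted p = 0.0684). The list's median in the mean of the IL-33 clones against the same control was 0.41, against 0.03 over all genes.

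Of 28 targets of ATF4 and of the unfolded protein response, 11 were at least 1 lower in both clones and 0 at least 1 higher, with a median of -0.55. In limma 14 fell, 1 rose and 13 did not pass, against 16.4% of all genes that fell and 20% that rose. The list's median in the mean of the IL-33 clones against the same control was -0.84. ASNS, asparagine synthetase, was at 9.06 and 9.13 in ΔNLS clones, at 8.57 to 9.15 in the IL-33 clones and at 11.46 in the control (-2.36 ± 0.24, adjusted p = 0.00254). CHAC1, which degrades glutathione, was at 6.08 and 6.02 in ΔNLS clones, at 5.82 to 6.11 in the IL-33 clones and at 8.20 in the control (-2.16 ± 0.16, adjusted p = 0.0014). For both genes the ΔNLS and IL-33 clones overlapped and all 5 lay below the 1 control. The stress factor DDIT3 was at 5.54 and 5.55 in ΔNLS clones, at 6.18 to 6.42 in the IL-33 clones and at 7.45 in the control (adjusted p = 0.00147). VLDLR, a lipoprotein receptor, was at 6.51 and 7.38 in ΔNLS clones and 9.68 in the control (adjusted p = 0.00496). Of 17 aminoacyl-tRNA synthetases, which charge tRNAs, 1 was at least 1 lower (WARS1, 9.43 and 9.27 in ΔNLS clones against 10.49 in the control, adjusted p = 0.00324), and 7 fell and 1 rose in limma, with 4 falling without ΔNLS clone 3 and 4 without clone 4. Their median was -0.37 in the ΔNLS clones and -0.42 in the IL-33 clones.

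The letters TGATGNAA, the core of the amino acid response element that ATF4 binds, were searched on both strands of the same promoter windows. They were in 5 of the 25 promoters of this list that the table held (20%), against 371 of 14425 promoters of all genes (2.57%). The list was chosen as targets of ATF4 and of the stress response, so a higher share was partly fixed by that choice. Among genes at least 1 lower in both ΔNLS clones, 20 of 725 promoters held the letters (2.76%). The sites of the 2 list members named above are shown with 8 bases on either side and the match in capitals, on the gene's strand, ASNS at chr7:97872461-97872484 and CHAC1, which matched on the opposite strand, at chr15:40953254-40953277.
ASNS: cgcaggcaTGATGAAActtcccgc
CHAC1: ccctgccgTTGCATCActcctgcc
The other 3 matches were in ATF3, SLC3A2 and HERPUD1, where the smaller of the 2 clones' differences was 0.86, -0.26 and -0.10, so genes with a match lay on both sides of the control. The letters TCACNCCAC of the sterol regulatory element were in 1 of 17 promoters of the sterol list, that of SREBF2, against 1.18% of all promoters.

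**Figure D4:**
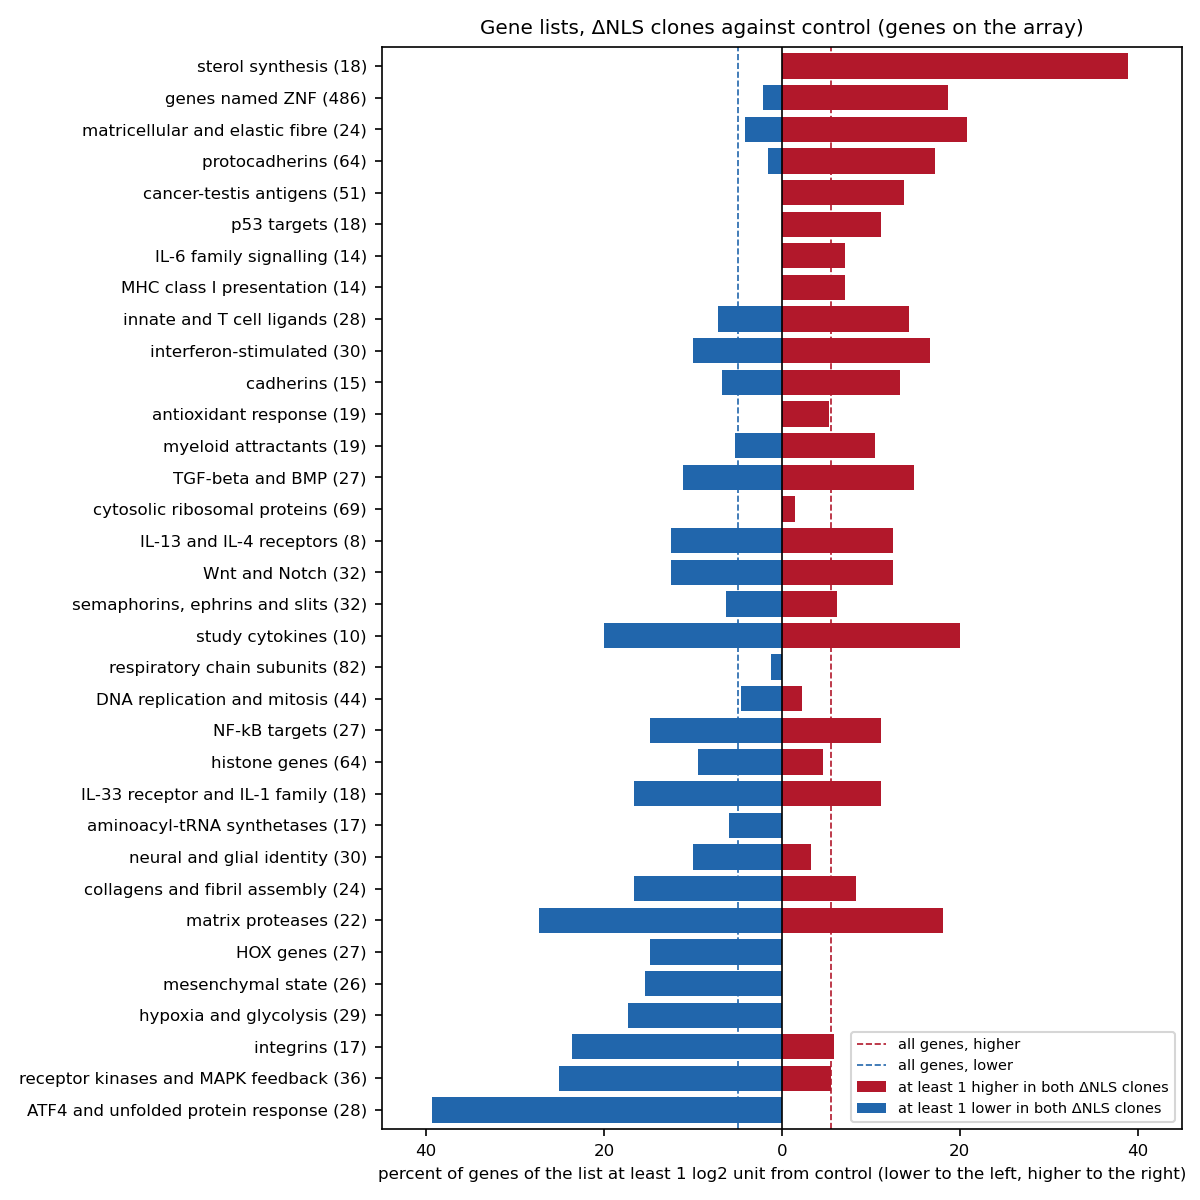
Each row is a gene list, with the percent of its measured genes at least 1 log2 unit higher and at least 1 lower than the control in both ΔNLS clones, and dashed lines at the shares over all genes (5.52% higher and 4.92% lower). The sterol list lies past the line on the higher side with none on the lower side, and the list of ATF4 targets lies past it on the lower side with none on the higher side.

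Hypoxia and glycolysis genes that passed were lower. Of 29 genes 5 were at least 1 lower and 0 at least 1 higher, and 9 fell, 0 rose and 20 did not pass in limma, against 16.4% of all genes that fell (4 fell without ΔNLS clone 3 and 4 without clone 4). The median was -0.40 in the ΔNLS clones and -0.99 in the IL-33 clones against the same control. For the ΔNLS clones it was -0.14 after median centring, where 7 fell and 1 rose. HK2, which phosphorylates glucose, was at 7.47 and 7.88 in ΔNLS clones, at 8.30 to 8.56 in the IL-33 clones and at 9.69 in the control (-2.02 ± 0.20, adjusted p = 0.00249). PKM, pyruvate kinase, was at 11.29 and 11.19 in ΔNLS clones, at 12.49 to 12.67 in the IL-33 clones and at 12.69 in the control (-1.45 ± 0.11, adjusted p = 0.00136). HK2 was below the control in all 5 clones, and PKM was apart only in the ΔNLS clones, by -1.36 from the IL-33 clones (adjusted p = 0.00066). Cell cycle genes mostly stayed within 1 of the control, with 1 of 44 higher and 2 lower past that size. The gene that was higher was the repressor E2F7, at 9.13 and 8.91 in ΔNLS clones, 9.06 to 9.85 in IL-33 clones and 2.66 in the control (adjusted p = 0.000869). The cyclin CCNA2 and the ribonucleotide reductase subunit RRM2 were lower (-1.52 and -1.17, adjusted p = 0.035 and 0.029), and neither passed without a ΔNLS clone (adjusted p up to 0.142 and 0.13).

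A list of growth factor receptor, ligand and feedback genes was lower more often than higher. Of 36 genes 9 were at least 1 lower and 2 at least 1 higher. In limma 5 rose, 12 fell and 19 did not pass, against 20% and 16.4% of all genes that rose and fell. As deposited 1 rose and 13 fell, a scale on which 2682 and 4268 of all genes did, and 5 and 4 fell without ΔNLS clone 3 and clone 4. Besides EREG, ETV1, an ETS factor induced by MAPK signalling, was at 8.91 and 8.90 in ΔNLS clones, at 9.57 to 10.24 in the IL-33 clones and at 10.58 in the control (-1.67 ± 0.27, adjusted p = 0.00799, and up to 0.0582 without a ΔNLS clone). FGF2 was at 7.46 and 7.15 in ΔNLS clones, at 8.0 to 9.80 in the IL-33 clones and at 9.23 in the control, which did not pass (adjusted p = 0.0672). The IGF-binding IGFBP7 did not pass either, at 9.34 and 9.43 in ΔNLS clones, 8.16 to 9.89 in IL-33 clones and 11 in the control (adjusted p = 0.0922). EREG, FGF2 and IGFBP7 lie on chromosome 4, where 31.1% of genes above background were at least 1 lower in both ΔNLS clones.

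The matrix metalloproteinases MMP3 and MMP1 fell and the inhibitor TIMP2 rose. Of 22 matrix proteases and inhibitors 4 were at least 1 higher and 6 at least 1 lower. MMP3, stromelysin-1, was at 5.67 and 5.53 in ΔNLS clones, at 11.23, 10.41 and 12.40 in the IL-33 clones and at 9.07 in the control. MMP1, interstitial collagenase, was at 3.74 and 3.58 in ΔNLS clones, at 6.57, 5.33 and 7.80 in the IL-33 clones and at 6.54 in the control. Both ΔNLS clones were the lowest arrays for both enzymes, which fell by 3.47 ± 0.72 and 2.88 ± 0.89 (bounded -1.74 for MMP1, adjusted p = 0.0156 and 0.0495) and did not pass without a ΔNLS clone (adjusted p up to 0.0927 and 0.186). The inhibitor TIMP2 was at 10.50 and 11.01 in ΔNLS clones, at 9.69 to 9.84 in the IL-33 clones and at 8.61 in the control (2.15 ± 0.21, adjusted p = 0.00245). TIMP3 was at 8.71 and 9.26 in ΔNLS clones, at 6.09, 3.38 and 5.75 in the IL-33 clones and at 7.14 in the control, and passed against the IL-33 clones (3.91, bounded 3.44, adjusted p = 0.0123) but not against the control (adjusted p = 0.224).

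Of 24 matricellular and elastic fibre genes 5 were at least 1 higher and 1 at least 1 lower. CCN2, connective tissue growth factor, was at 10.01 and 10.38 in ΔNLS clones, at 8.76, 8.93 and 7.53 in the IL-33 clones and at 7.90 in the control (2.29 ± 0.57, adjusted p = 0.0268, and up to 0.136 without a ΔNLS clone). THBS1 was at 9.55 and 10.55 in ΔNLS clones, at 6.53, 4.89 and 6.93 in the IL-33 clones and at 8.15 in the control, and passed against the IL-33 clones (3.93, adjusted p = 0.00602) but not against the control (adjusted p = 0.132). Its relative THBS2 was at 4.97 and 4.59 in ΔNLS clones, at 6.85 to 7.18 in the IL-33 clones and at 6.80 in the control (-2.02 ± 0.21, bounded -1.91, adjusted p = 0.00264). The 2 thrombospondins therefore stood on opposite sides of the IL-33 clones. Of 24 collagen genes 2 were at least 1 higher and 4 at least 1 lower. COL8A1 was at 8.02 and 7.82 in ΔNLS clones and 9.85 in the control (adjusted p = 0.00967), and COL4A2, a basement membrane chain, at 7.71 and 7.40 in ΔNLS clones and 6.08 in the control (adjusted p = 0.0245). Neither collagen passed without a ΔNLS clone (adjusted p up to 0.0688 and 0.123).

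Adhesion receptors changed in both directions. ITGA2, the collagen-binding α2 integrin, was at 8.49 and 8.58 in ΔNLS clones, at 10.68 to 11 in the IL-33 clones and at 10.09 in the control (-1.55 ± 0.15, adjusted p = 0.00244). ITGA5, of the fibronectin receptor, was at 8.72 and 8.98 in ΔNLS clones, at 9.48 to 9.85 in the IL-33 clones and at 10.26 in the control (-1.41 ± 0.20, adjusted p = 0.00576). In both the ΔNLS clones were the lowest arrays. Of 17 integrin genes 1 was at least 1 higher and 4 at least 1 lower. CDH3, P-cadherin, was at 7.70 and 7.81 in ΔNLS clones, at 5.06 to 5.55 in the IL-33 clones and at 4.98 in the control, and rose by 2.77 ± 0.22 (adjusted p = 0.00164). Of 15 cadherins CDH11 and CDH3 were the 2 at least 1 higher, and 1 was at least 1 lower. The semaphorin receptor PLXNA1 was at 8.12 and 8.16 in ΔNLS clones and 5.96 in the control (adjusted p = 0.00118), and SEMA3C at 8.55 and 8.32 in ΔNLS clones and 10.28 in the control (adjusted p = 0.00396).

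Developmental signalling showed no single direction. In the TGF-β and BMP list 4 of 27 genes were at least 1 higher and 3 at least 1 lower. SMAD3, the intracellular TGF-β effector, was at 9.44 and 9.56 in ΔNLS clones, at 8.66 to 8.87 in the IL-33 clones and at 7.26 in the control (2.24 ± 0.14, adjusted p = 0.001). The BMP antagonist CHRDL1 was at 7.56 and 8.03 in ΔNLS clones, at 3.66 to 4.26 in the IL-33 clones and at 5.60 in the control (2.20 ± 0.30, adjusted p = 0.00508). SMAD3 was above the control in all 5 clones, and CHRDL1 only in the ΔNLS clones. Of the 3 CHRDL1 probe sets 2 were at least 1 higher and 1 was below the control in both ΔNLS clones. In the Wnt and Notch list 4 of 32 were at least 1 higher and 4 at least 1 lower. Next to FZD8 and DKK3, the Wnt inhibitor DKK1 was at 9.58 and 9.61 in ΔNLS clones, at 7.07 to 8.21 in the IL-33 clones and at 7.27 in the control (2.32 ± 0.43, adjusted p = 0.0111, and up to 0.0731 without a ΔNLS clone), while the receptor FZD7 was at 4.13 and 4.27 in ΔNLS clones and 6.65 in the control (adjusted p = 0.01, and up to 0.0684).

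Of 26 genes in the list of mesenchymal state, which does not hold CDH11, 4 were at least 1 lower and 0 at least 1 higher. In limma 2 of the 26 rose and 9 fell, against 6 and 6 after median centring, 2 and 3 without ΔNLS clone 3 and 2 and 2 without clone 4. SNAI2, a transcription factor of mesenchymal transition, was at 9.16 and 8.86 in ΔNLS clones, at 10.45 to 10.86 in the IL-33 clones and at 10.89 in the control (-1.88 ± 0.21, adjusted p = 0.00303). The AP-1 subunit FOSL1 was at 8.92 and 8.67 in ΔNLS clones, at 9.97 to 10.13 in the IL-33 clones and at 10.01 in the control (-1.22 ± 0.15, adjusted p = 0.00378). The neuronal microtubule protein MAP2 was at 3.75 and 4.08 in ΔNLS clones, at 5.65 to 6.61 in the IL-33 clones and at 6.69 in the control (adjusted p = 0.00687, and 0.054 without clone 3). For all 3 the ΔNLS clones lay below the other 4 arrays. Of 30 neural and glial genes 3 were at least 1 lower and 1 at least 1 higher, and in limma 5 rose and 8 fell. Over all genes 20% rose and 16.4% fell, the shares against which the mesenchymal and the neural counts are to be read.

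Of 30 interferon-stimulated genes 5 were at least 1 higher and 3 at least 1 lower. BST2, which tethers budding virions, was at 7.98 and 7.21 in ΔNLS clones, at 3.69 to 4.03 in the IL-33 clones and at 3.75 in the control (3.85 ± 0.32, bounded 2.79, adjusted p = 0.0017). IFITM1, which blocks viral entry, was at 6.97 and 7.30 in ΔNLS clones, at 4.63 to 5.00 in the IL-33 clones and at 4.92 in the control (2.21 ± 0.21, adjusted p = 0.0022). In contrast IFI44L was at 6.23 and 5.91 in ΔNLS clones and 7.57 in the control, and SAMD9L at 5.00 and 4.90 in ΔNLS clones and 6.35 in the control (adjusted p = 0.0124 and 0.007, up to 0.0765 and 0.0511 without a ΔNLS clone). BST2 and IFITM1 were thus high in the ΔNLS clones alone, while other members of the list were lower. NLRC5, the activator of MHC class I genes, was at 7.57 and 7.69 in ΔNLS clones, at 6.32 to 6.64 in the IL-33 clones and at 5.92 in the control (1.71 ± 0.16, adjusted p = 0.00227), and it was the only 1 of 14 MHC class I presentation genes past 1.

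Zinc finger genes were higher more often than lower. Of 486 genes named ZNF, 91 were at least 1 higher and 10 at least 1 lower. In limma 151 rose, 38 fell and 297 did not pass, against 20% and 16.4% of all genes that rose and fell. As deposited 120 rose and 66 fell, and 92 and 97 rose without ΔNLS clone 3 and clone 4. ZNF423, a co-factor of SMAD and EBF proteins, was at 8.07 and 8.45 in ΔNLS clones, at 2.75 to 2.76 in the IL-33 clones and at 2.77 in the control. It was above background only in the ΔNLS clones, and differed from the IL-33 clones by 5.51 (bounded 3.46, adjusted p = 6.9e-05) and from the control by 5.49 ± 0.17 (bounded 3.46, adjusted p = 0.000298). ZNF266 was at 8.03 and 7.97 in ΔNLS clones, at 5.72 to 6.66 in the IL-33 clones and at 4.71 in the control (adjusted p = 0.00287). Of 64 protocadherins 11 were at least 1 higher and 1 at least 1 lower. Their calls followed the scaling, with 17 rising and 8 falling after quantile normalisation and 12 and 22 as deposited. The calls of all genes did so too, with 3620 rising and 2981 falling after quantile normalisation and 2682 and 4268 as deposited. PCDHB13 was at 7.64 and 7.62 in ΔNLS clones, at 5.24 to 5.67 in the IL-33 clones and at 4.79 in the control (2.84 ± 0.19, adjusted p = 0.00118), and PCDHB10 at 6.56 and 6.49 in ΔNLS clones, 4.35 to 4.92 in IL-33 clones and 3.65 in the control (adjusted p = 0.0017).

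Of 51 cancer-testis genes 7 were at least 1 higher and 0 at least 1 lower. Besides VCX, MAGEC1 and MAGEC2, MAGEA1 was at 9.20 and 9.37 in ΔNLS clones, at 8.49 to 9.71 in the IL-33 clones and at 3.19 in the control (6.10 ± 0.45, bounded 4.48, adjusted p = 0.0014). MAGEA1 overlapped between the 2 kinds of clone, whereas VCX did not. Among 64 clustered histone genes 3 were at least 1 higher and 6 at least 1 lower, with H4C3 at 12.15 and 12.20 in ΔNLS clones, 9.37 to 10.06 in IL-33 clones and 9.93 in the control (adjusted p = 0.00349) and H2AC20 at 6.03 and 6.05 in ΔNLS clones, 6.38 to 6.97 in IL-33 clones and 8.43 in the control (adjusted p = 0.00246). HOX genes were lower where they were past 1 (4 of 27, 0 higher), with HOXD8 at 6.92 and 6.80 in ΔNLS clones and 8.48 in the control (adjusted p = 0.00579). MAGE, protocadherin, histone and zinc finger genes have close relatives whose transcripts a probe set may also detect.

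The remaining lists had few genes past 1. Of 18 p53 targets 2 were at least 1 higher and 0 lower, the stress sensor SESN1 at 7.90 and 7.72 in ΔNLS clones against 6.46 in the control (adjusted p = 0.00235) and TP53INP1 at 7.88 and 7.84 in ΔNLS clones against 6.69 in the control (adjusted p = 0.00462). The other TP53INP1 probe set was below the control in both ΔNLS clones, and the mean difference over both was 0.20. Of 19 antioxidant genes the transporter ABCC3 was the only 1 past that size, at 7.64 and 7.78 in ΔNLS clones, 4.63 to 5.49 in IL-33 clones and 6.40 in the control (adjusted p = 0.031, and up to 0.139 without a ΔNLS clone). The IL-6 family receptor chain IL6ST was at 10.89 and 10.75 in ΔNLS clones and 10.56 in the control, and its transducer STAT3 at 8.39 and 8.48 in ΔNLS clones and 8.61 in the control. Neither passed (adjusted p = 0.116 and 0.535), and the only 1 of 14 genes of that family list past 1 was the inhibitor SOCS2, below background at 4.03 and 4.09 in ΔNLS clones and 2.45 in the control. Among 8 genes of the IL-13 and IL-4 receptors the kinase TYK2 was past 1 besides IL13RA2, at 8.97 and 9.15 in ΔNLS clones and 7.79 in the control (adjusted p = 0.01, and up to 0.0668 without a ΔNLS clone). Of 69 ribosomal protein genes RPS3 alone was past 1, at 12.43 and 12.35 in ΔNLS clones and 11.17 in the control (adjusted p = 0.00177), and of 82 respiratory chain subunits COX6B2 alone, at 4.43 and 4.52 in ΔNLS clones and 5.85 in the control (adjusted p = 0.00177). Of 32 semaphorin, ephrin and slit genes 2 were at least 1 higher and 2 lower. Of 9 lymphoid markers 0 were higher and 1, CD2, was lower, and of 8 endothelial markers 1, TEK, was higher and 0 were lower.

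The differences were not spread evenly along the genome. Among genes above background, chromosome 4 had the lowest median, -0.67 and -0.72 in ΔNLS clones 3 and 4, with 131 of 421 genes (31.1%) at least 1 lower in both clones, against 6.59% of all genes above background. Its median was -0.34, -0.57 and -0.44 in IL-33 clones 3, 5 and 9. Chromosome 14 followed with -0.38 and -0.41 in the ΔNLS clones and -0.28, -0.39 and -0.36 in the IL-33 clones. All 5 clones were therefore lower than the 1 control on these chromosomes. At the other end chromosome 19 had medians of 0.26 and 0.31 in the ΔNLS clones, with 105 of 884 genes (11.9%) at least 1 higher, against 7.10% of all genes above background, and 0.10, 0.16 and 0.12 in the IL-33 clones. DNA copy number was not measured.

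**Figure D5:**
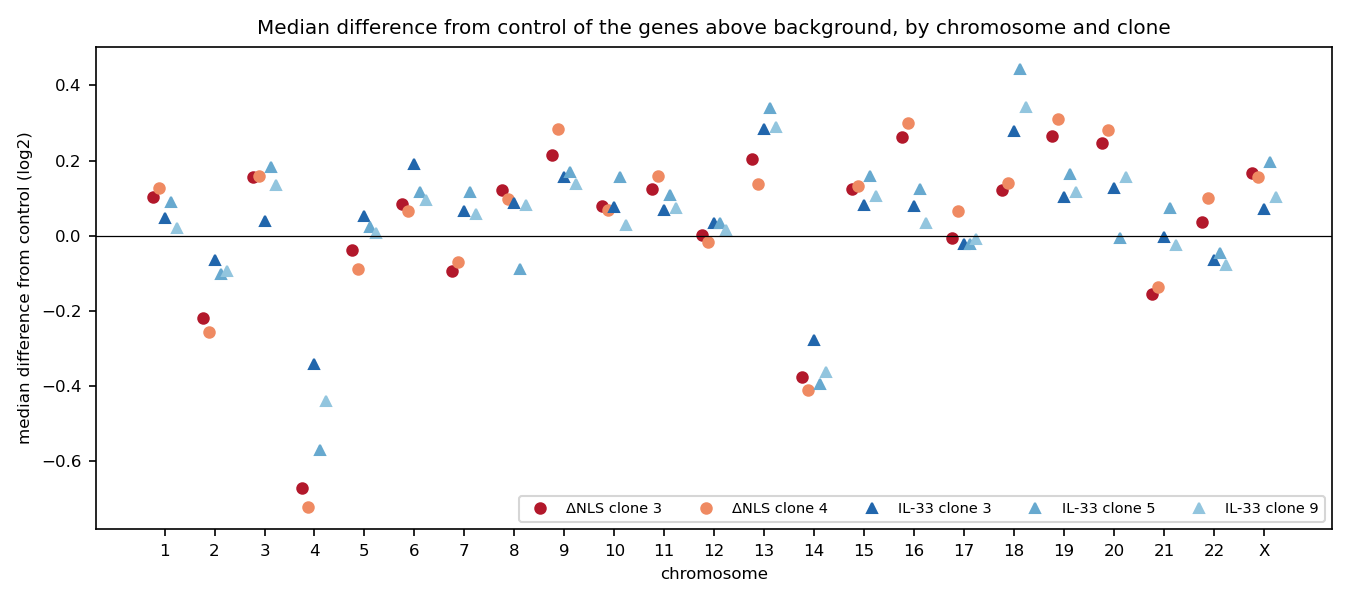
For each chromosome the median log2 difference from the control is shown for the 5 clones, over genes above background. Chromosome 4 is lowest in all 5 clones, at -0.67 and -0.72 in the ΔNLS clones, and chromosome 19 is at 0.26 and 0.31 in the ΔNLS clones.

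In RefSeq gene order, runs of neighbouring genes whose medians over 21 genes were at least 0.9 from the control in both ΔNLS clones formed 11 stretches. On chromosome 4 there were 6. The one between CENPC and PAQR3 held 39 genes, 17 of them at least 1 lower, among which were CXCL8, CXCL3, MTHFD2L and EREG, and its median was -0.87 and -0.92 in ΔNLS clones and -0.27, -0.42 and -0.29 in the IL-33 clones. The one between CYP2U1 and SCLT1 held 53 genes, with CCNA2 and FGF2 among the 23 at least 1 lower, and SPP1 and UBE2K lay in the others. A stretch of 74 genes between SLC19A2 and TMEM9 on chromosome 1 had 32 at least 1 lower and 0 higher, PTGS2 and PRRX1 among them. The medians and shares in these stretches follow from how they were chosen. On chromosome 19 the 3 stretches were higher, and the one between RFXANK and PDCD5 held 41 genes, 20 at least 1 higher and 0 lower, nearly all zinc finger genes and ZNF91 among them. Its median was 1.01 and 1.0 in ΔNLS clones and 0.28, 0.58 and 0.54 in the IL-33 clones.

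The 2 ΔNLS clones differed from each other by at least 1 in 42 genes, against 312, 132 and 294 genes between pairs of IL-33 clones. With levels below background raised to it, the largest differences were in COL13A1, a transmembrane collagen, at 7.12 in clone 3 and 9.42 in clone 4 against 7.55 in the control, and in RPTN, an epidermal matrix protein, at 4.87 in clone 3 and 7.08 in clone 4 against 3.08 in the control. SAMD5 was at 6.45 and 8.30 in ΔNLS clones and 2.77 in the control, the basal keratin KRT14 at 6.20 and 7.92 in ΔNLS clones and 5.31 in the control, EPPIN at 4.72 and 6.51 in ΔNLS clones and 2.88 in the control, and the LIM factor LMO2 at 6.15 and 7.83 in ΔNLS clones and 5.90 in the control. In all 6 clone 4 was the higher. SAMD5 and EPPIN passed against the control (adjusted p = 0.00645 and 0.0229), and COL13A1, where the clones lay on either side of the control, did not (adjusted p = 0.709).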

How the data were processed

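Expression was measured on 6 arrays in U87 cells, and 3 of them, the ΔNLS clones and the empty vector control, form the comparison, with the 3 IL-33 clones in the same fit. The authors labelled total RNA by 3′ in vitro transcription and deposited a log2 value for each probe set and array. The submitters' processing notes name Partek 6.0. Their background correction, normalization and log base are not given in the sources used here, and base 2 was assumed (highest value 14.16). The deposited values were quantile normalised over the 6 arrays. Of 49395 probe sets, 44994 had 1 gene symbol in the platform annotation, and for each of 18132 genes the probe set with the highest mean was used. The background level, 4.80, was the 95th percentile of 341 olfactory receptor genes, and a bounded difference had levels below it raised to it.

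A linear model of 3 group means over 6 arrays (3 residual and 2.91 prior degrees of freedom) was fitted in limma 3.58.1 under R 4.3.3. Its moderated two-sided test used a mean-variance trend, and p was adjusted over all genes by Benjamini-Hochberg, with calls at 0.05. Every ± is the standard error of that fit. The methods name a test made for counts, which these values are not. No source says whether clones were cultured or run separately. The p-values therefore reflect only how these clones vary, and the precision is limited by the number of arrays. The script was tested on simulated data with known changes.

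The comparison, the genes and the 40 gene lists were chosen with earlier results of these data known. Named were IL33, the study's 10 cytokines, the 12 highest and 12 lowest genes by the bounded difference of the smaller of the 2 clones among genes past both criteria, up to 4 members of each list with a bounded difference of at least 1, and the 6 genes with the largest difference between the clones. Of those named by the lists, a part is given in the text. CDKN2B, PTPRC, EPCAM, IL1RL1, IL1RAP, IL1A, IL18, IL36B, SOCS2, CD2 and TEK were added after their values were seen, as were the genes at the size threshold and those that bound a stretch. Promoters were matched by symbol, 14425 of 18132 genes, using the first listed start. Alternatives were other scalings (as deposited, quantile over 3 arrays, median centred), the mean of all probe sets, filters on background, other size thresholds, eBayes settings, a fit without the IL-33 clones and leaving out each clone.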

Additional observations from a re-analysis of the deposited data

Results flagged for a closer look

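For 6 of the study's cytokines the ΔNLS and the IL-33 clones differed, by the limma test of the difference between both groups of clones. Most of the cytokines were named by the study as induced on these IL-33 arrays, so the direction was partly fixed by that choice. The ΔNLS minus IL-33 difference was -6.99 for IL1B, -5.13 for CXCL3 (-3.03 with levels below background raised to it), -4.92 for CXCL8, -4.58 for IL6, -3.71 for CSF3 and -2.66 for LIF. Both groups share the 1 control array, which does not enter this difference. The ΔNLS arrays also stood apart in their spike controls and 18S probe sets, so construct and array set cannot be told apart in these differences.

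Gene values used only probe sets with 1 symbol. Of the 4305 other probe sets (without the controls), 245 were at least 1 higher than the control in both ΔNLS clones (5.69%) and 194 at least 1 lower (4.51%), against 5.52% and 4.92% of genes.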

How the results depend on the processing

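Over the other scalings, the mean of all probe sets and the background settings, 717 to 1147 genes were at least 1 higher and 678 to 1229 at least 1 lower, against 1001 and 892. A threshold of 0.5 gave 3063 higher and 2608 lower genes, and one of 2 gave 206 and 176. With 1 ΔNLS clone left out, 1173 to 1205 genes were past 1 higher and 1072 to 1110 lower. The limma calls ran between 1845 and 4088 higher and between 1565 and 3426 lower when 1 clone was left out, and the cytokines lower in ΔNLS than in IL-33 clones between 1 and 8, against 6. With 1 ΔNLS clone the lone clone was assumed to vary like the other groups. Of the 143 genes followed, 37 lost their call without ΔNLS clone 3 and 42 without clone 4, and 18 gained one when the ΔNLS and control arrays were fitted alone. CCL2 passed neither with a robust eBayes fit (adjusted p = 0.0822) nor as deposited (0.0509). Of the 143 genes 9 changed direction under an alternative, none of them past the threshold against the control in the fit reported. When all probe sets of a gene were averaged these were IL6ST (-0.40), CD79A (-0.40), VWF (-0.24), MTAP (-0.20), GNLY (-0.17) and TIE1 (0.069). On the values as deposited they were VIM (0.17), GNLY (-0.13), CCL3 (-0.12) and VWF (-0.051), and after median centring VIM (0.35). With 1 ΔNLS clone left out COL13A1 ran between -0.43 and 1.87 and VWF between -0.0082 and 0.26, each negative without clone 4. The cause was not tested. The calls for the 10 cytokines against the control were 1 higher and 0 lower, and 2 and 5 when the ΔNLS and control arrays were fitted alone.

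No paired analysis was possible because the ΔNLS and IL-33 clones share only the number 3, which names separate clones, and the control has no number. The spread of the control is unknown, and levels below background limit a fall or a rise to a bound. In the fits without the IL-33 clones the only spread was that between the 2 ΔNLS clones, so their calls do not measure how the control varies.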
